A study of Mus musculus with 7 samples.

Results

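The genes described here are Tppp, its paralogue Tppp3, the microtubule-associated proteins Map1a, Map1b, Map4, Map7 and Mapt (tau), the stathmins Stmn1 and Stmn4, and Dpysl2, which encodes CRMP2. They are 10 of the 27998 genes in the count table and were found there by symbol. The list was selected on Tppp and its relatives after the ratios of ectopic to control dorsal cells were known, so these ratios are given as a description and carry no test. The cells were oligodendrocyte lineage cells (OLCs) sorted from mice at P90 and profiled by droplet-based single-cell RNA sequencing, with 1 library for each of 3 groups. Control dOLCs were the TdTom+ cells of Emx1-Cre:Sox10-GFP-TdTom animals, in which Cre acts in dorsal forebrain progenitors and switches Sox10-driven GFP to tdTomato. Control vOLCs were the GFP+ cells of the same genotype, which come from progenitors that Emx1-Cre does not recombine. Ectopic vOLCs were the GFP+ cells of animals that carry Sox10-GFP-DTA in addition to Emx1-Cre and Sox10-GFP-tdTom, in which Cre switches on diphtheria toxin A, so that dorsal OLCs are killed and ventral ones take their place. All animals carried Emx1-Cre and the Sox10 reporter on a C57BL/6 and B6CBA background. The labels name motor and cingulate cortex as the tissue, whereas the study's methods also name the corpus callosum. Cells of 4 control and 2 ablated mice were pooled within libraries and cannot be told apart, so that group and library cannot be told apart either, and all intervals below cover counting error only.

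Microtubules are polymers of tubulin that give oligodendrocyte processes their shape and carry mRNA, vesicles and organelles out to the myelin sheath. TPPP binds tubulin and promotes its assembly and bundling, and in oligodendrocytes it sits at Golgi outposts, from which microtubules grow into the processes. The MAP1, MAP4 and tau proteins bind along the lattice and stabilise it, MAP7 brings the motor kinesin-1 to it, stathmins bind free tubulin dimers and favour disassembly, and CRMP2 carries tubulin dimers to the growing end. Oligodendrocyte precursor cells (OPCs) pass through committed precursors (COP), newly formed (NFOL) and myelin-forming (MFOL) stages to mature oligodendrocytes (MOL), whose largest class in these libraries was MOL5/6.

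Tppp lies on the plus strand of mouse chromosome 13 (GRCm38, chr13:74009407-74035753) and no other gene of the count table overlaps it. The 250 bases before its RefSeq start are shown as the sequence around which transcription begins (GRCm38.p6, plus strand, chr13:74009169-74009418), with the GC box GGGCGG in capitals. The GENCODE start given above lies inside the last bases of this stretch, so that the GC box is before the RefSeq start but after the GENCODE one.
Tppp promoter: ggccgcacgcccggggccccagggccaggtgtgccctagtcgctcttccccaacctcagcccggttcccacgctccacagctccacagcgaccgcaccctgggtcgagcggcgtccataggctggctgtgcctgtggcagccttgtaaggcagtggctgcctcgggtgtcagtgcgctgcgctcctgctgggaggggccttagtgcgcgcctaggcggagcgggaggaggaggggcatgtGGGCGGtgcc
Its GC content was 71.6%, against a median of 52.4% over 32851 RefSeq promoters of the same length. It held 1 GC box, which 32.7% of all promoters hold on either strand, and 2 E-boxes (CANNTG), which 66.2% hold. It held 0 copies of TATAAA, which 12.4% of promoters hold. Promoters were on hand for 5 of the 10 genes, and GC content was 66.0% for Map1a, 80.4% for Map7 and 66.4% for Map1b. Map4 had 2 promoters, at 74.0% and 43.6%, the latter below the median.

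Tppp and Tppp3 encode related proteins, and the probes that the study lists for Tppp in its RNA in situ hybridization are shown because their letters set which of these genes they bind. The listed set has 4 pairs, each of a primer and a padlock that bind side by side, 1 base apart. The longest run of each probe that matches Tppp3 exactly, 19 to 25 bases long, is printed in capitals. These runs were searched against all GENCODE transcripts of GRCm38.
Pair 1 primer: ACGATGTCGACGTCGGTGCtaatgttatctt
Pair 1 padlock: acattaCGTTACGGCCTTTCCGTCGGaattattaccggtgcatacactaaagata
Pair 2 primer: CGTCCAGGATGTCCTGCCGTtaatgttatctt
Pair 2 padlock: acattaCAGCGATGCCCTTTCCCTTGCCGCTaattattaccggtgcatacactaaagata
Pair 3 primer: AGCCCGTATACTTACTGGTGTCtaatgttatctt
Pair 3 padlock: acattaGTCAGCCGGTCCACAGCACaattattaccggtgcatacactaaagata
Pair 4 primer: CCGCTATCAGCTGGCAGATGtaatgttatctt
Pair 4 padlock: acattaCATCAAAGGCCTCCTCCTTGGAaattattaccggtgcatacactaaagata
The capitals were chosen by this match, as reverse complements of the sense strand of Tppp3. For none of the 8 was an exact match found in another gene. The pairs lie in coding exons of Tppp3 on the minus strand, at chr8:105468455-105468494, chr8:105467898-105467943, chr8:105467967-105468008 and chr8:105468185-105468227. None of the 8 matched Tppp, for which the longest exact run anywhere in a probe was between 7 and 12 bases. Whether these listed sequences were the ones hybridised is not known here. The study also reported lower Tppp by qPCR, with separate primers that are not shown here. The levels below are separate counts of each gene.

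The 3 libraries held 5804, 925 and 2562 kept cells (control dorsal, control ventral and ectopic, the order used throughout), with 23078181, 4846391 and 14293675 unique molecular identifiers (UMIs, each 1 captured RNA molecule). The median UMIs per cell were 3489.5, 5022 and 5318.5. Among the 9291 kept cells, 39 barcode sequences occurred in more than 1 library. Levels are counts per 1000000 UMIs (CPM) of all cells that a library had in a cluster, with clusters as the authors annotated them. Reads were taken from one end of the transcript, so that levels are compared within a gene and never between genes. The clusters were made from the same cells and genes, so that differences between clusters are a description. MOL5/6 joins its 4 subclusters and held 3777, 561 and 1842 cells, and OPCs, without cycling ones, numbered 853, 121 and 330. In MOL5/6 the 6 mature oligodendrocyte markers summed to 47507, 53122 and 53479 CPM, and the microglial markers to between 0.851 and 1.68 CPM. OPC markers in OPCs summed to 8471, 10681 and 8580 CPM, while neuronal markers there summed to 1131, 1302 and 1214 CPM, against 9.93 to 21.4 CPM in MOL5/6.

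Tppp was lowest in ectopic vOLCs in every cluster that could be compared, and in each library it was higher in mature cells than in OPCs. In MOL5/6 it stood at 349.9 CPM in control dOLCs, at 322 CPM in control vOLCs and at 129 CPM in the ectopic library. The controls lay close together and the ectopic library lay far below both. Relative to control dOLCs the ectopic level was 2.70-fold lower, a log2 ratio of -1.44 (95% interval -1.52 to -1.35), and relative to control vOLCs the log2 ratio was -1.31 (-1.43 to -1.19). Between the controls it was -0.12 (-0.22 to -0.02). Scaling by TMM or size factors raised all ratios of the ectopic library to control dOLCs in MOL5/6 by 0.17 or 0.19, and Tppp was then -1.27 or -1.25. The comparisons share libraries, so they are given side by side and are not independent of each other.

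Tppp in OPCs was far lower and rested on few molecules. Control dOLCs had 96.4 CPM (253 UMIs), control vOLCs 53.2 (21 UMIs) and ectopic vOLCs 19.1 (23 UMIs), so that all 3 libraries differed. The ectopic library gave a log2 ratio of -2.33 (-3.02 to -1.71) to the dorsal control and of -1.48 (-2.39 to -0.55) to the ventral one. The latter fell below the filter of 50 UMIs in both libraries together and is therefore left out of counts of genes. Control vOLCs to control dOLCs gave -0.86 (-1.57 to -0.21).

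The rise of Tppp from OPCs to all mature clusters together was 3.56-fold in control dOLCs, 5.79-fold in control vOLCs and 6.78-fold in the ectopic library. Among mature clusters it was highest in MOL5/6c in each library, at 455, 499 and 281 CPM, and lowest in MOL5/6a, at 185, 191 and 94.2 CPM. In control dOLCs MOL5/6c was followed by MOL5/6b and MOL1, both at 368 CPM and not apart beyond counting error. MOL2a (311), MOL2b (306), COP/NFOL/MFOLa (269), MOL5/6d (257), MFOLb (230.2) and MOL5/6a then followed, with no neighbours apart. In control vOLCs MOL5/6c and MOL5/6b (434) were not apart, and MOL5/6d (333), MOL1 (315) and MOL2a (276) formed a second step above MOL5/6a. In ectopic vOLCs only MOL5/6c and OPCs stood apart from their neighbours, and the 8 clusters between them ranged from 151 CPM in MOL1 to 94.2 in MOL5/6a. Even the highest ectopic cluster lay below MOL5/6c, MOL5/6b and MOL1 of control dOLCs.

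**Figure D1:**
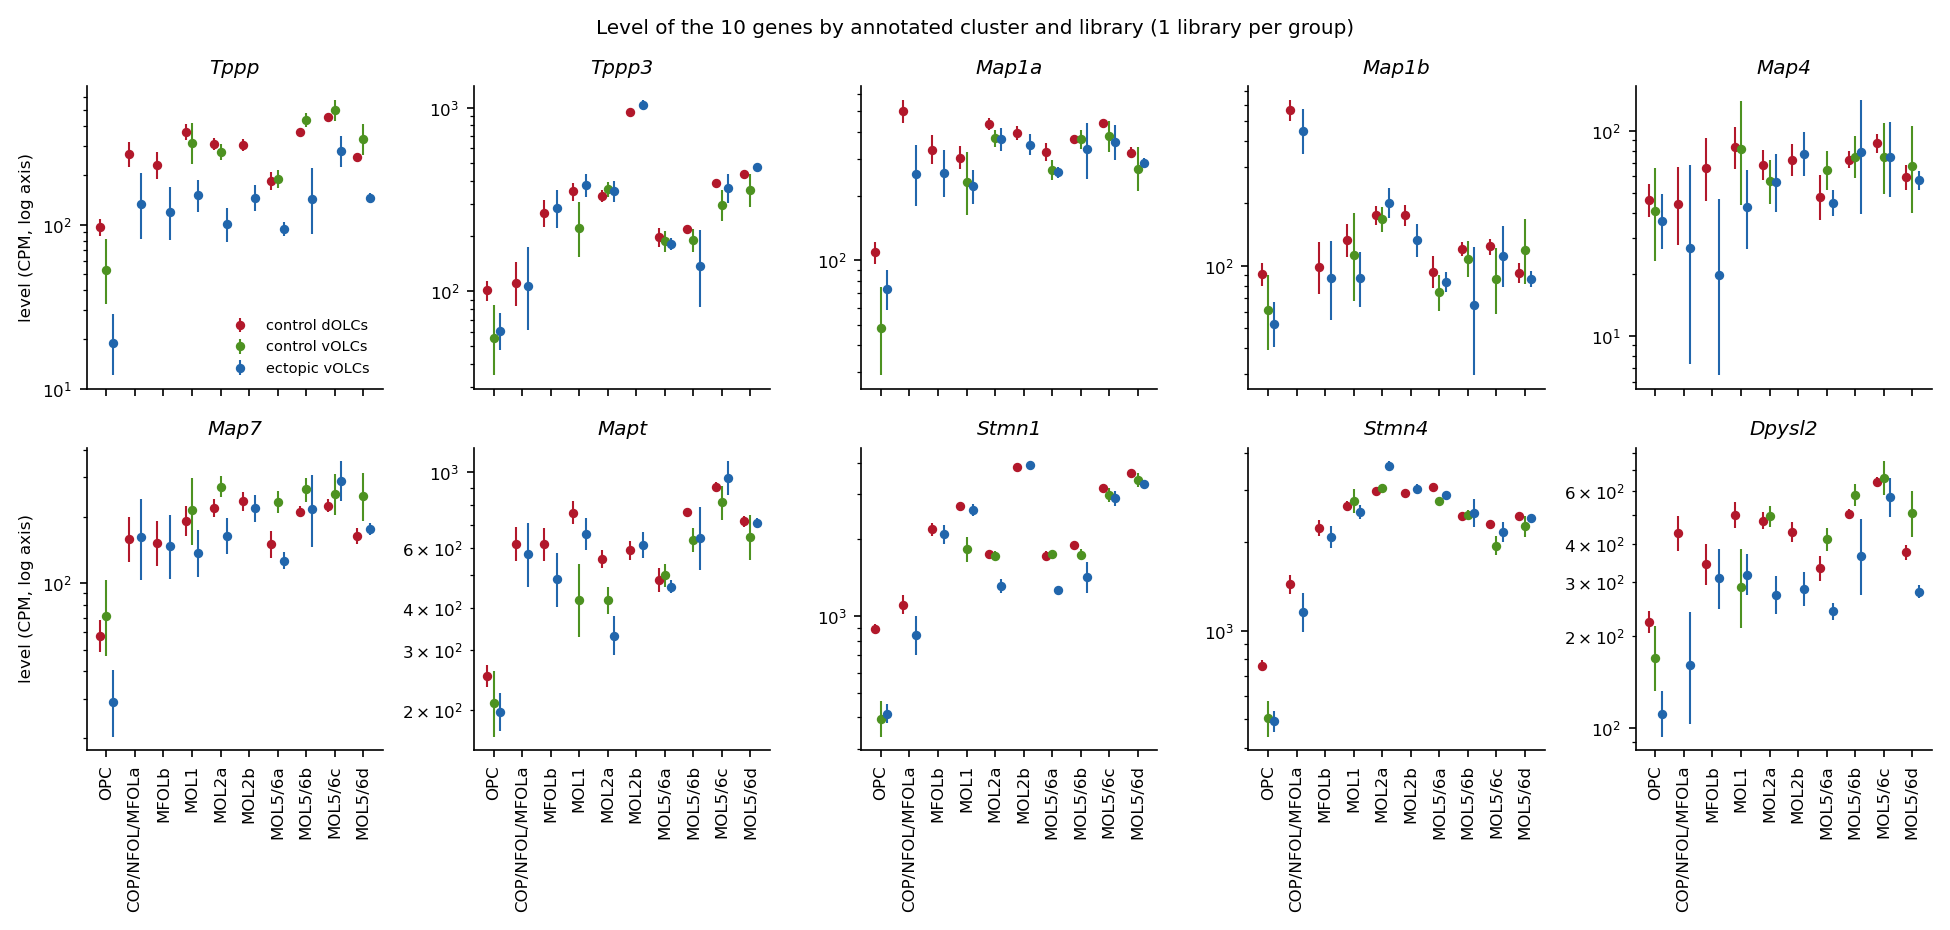
Level of each gene (CPM, log axis) in each annotated cluster with at least 20 cells, in red for control dOLCs, green for control vOLCs and blue for the ectopic library, with bars for the exact 95% Poisson interval. OPCs sit lowest for most of the genes, the blue points of Tppp lie below the red ones in all 10 clusters, and Tppp3 peaks in MOL2b at 941 and 1032 CPM.

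Within single clusters Tppp kept the same direction. Of 10 clusters with at least 20 cells in both libraries, all 10 had a ratio to control dOLCs below 0, and all 10 intervals lay below 0. The ratios ran from -2.33 in OPCs to -0.70 in MOL5/6c. The early cluster COP/NFOL/MFOLa gave -1.01 (-1.76 to -0.32) and the cluster annotated MFOLb gave -0.95 (-1.58 to -0.36). In MFOLb astrocyte markers summed to 3427, 4199 and 2771 CPM, against 225 to 266 in MOL5/6, and COP and newly formed markers to 244, 271 and 258 CPM, against 218 to 271 in MOL5/6, so that its ratios are given under the annotated name only. The part of these markers in its ratio was not tested. MOL1, MOL2a and MOL2b gave -1.29, -1.63 and -1.07. The MOL5/6 subclusters a to d gave -0.97, -1.35, -0.70 and -0.83. Against control vOLCs, 7 of 7 clusters had intervals below 0, from -1.59 in MOL5/6b to -0.83 in MOL5/6c. Between the controls the sign differed among clusters, from -0.86 in OPCs to 0.37 in MOL5/6d.

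Cells with a Tppp molecule were also fewer. At least 1 Tppp UMI was found in 69.6% of dorsal control, 74.9% of ventral control and 48.8% of ectopic MOL5/6 cells, although the median depth per cell was highest in the ectopic library (3491, 5069 and 5478.5 UMIs). With every cell thinned to 1000 UMIs, which left out 0 cells, the shares were 30.6%, 27.1% and 12.7%. In OPCs the shares were 23.1%, 16.5% and 6.97%, and 8.44%, 4.96% and 2.42% after thinning, at median depths of 2795, 3454 and 3421.5 UMIs. No annotated cluster is known to lack Tppp, so that the share that free RNA alone would give was not measured.

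**Figure D2:**
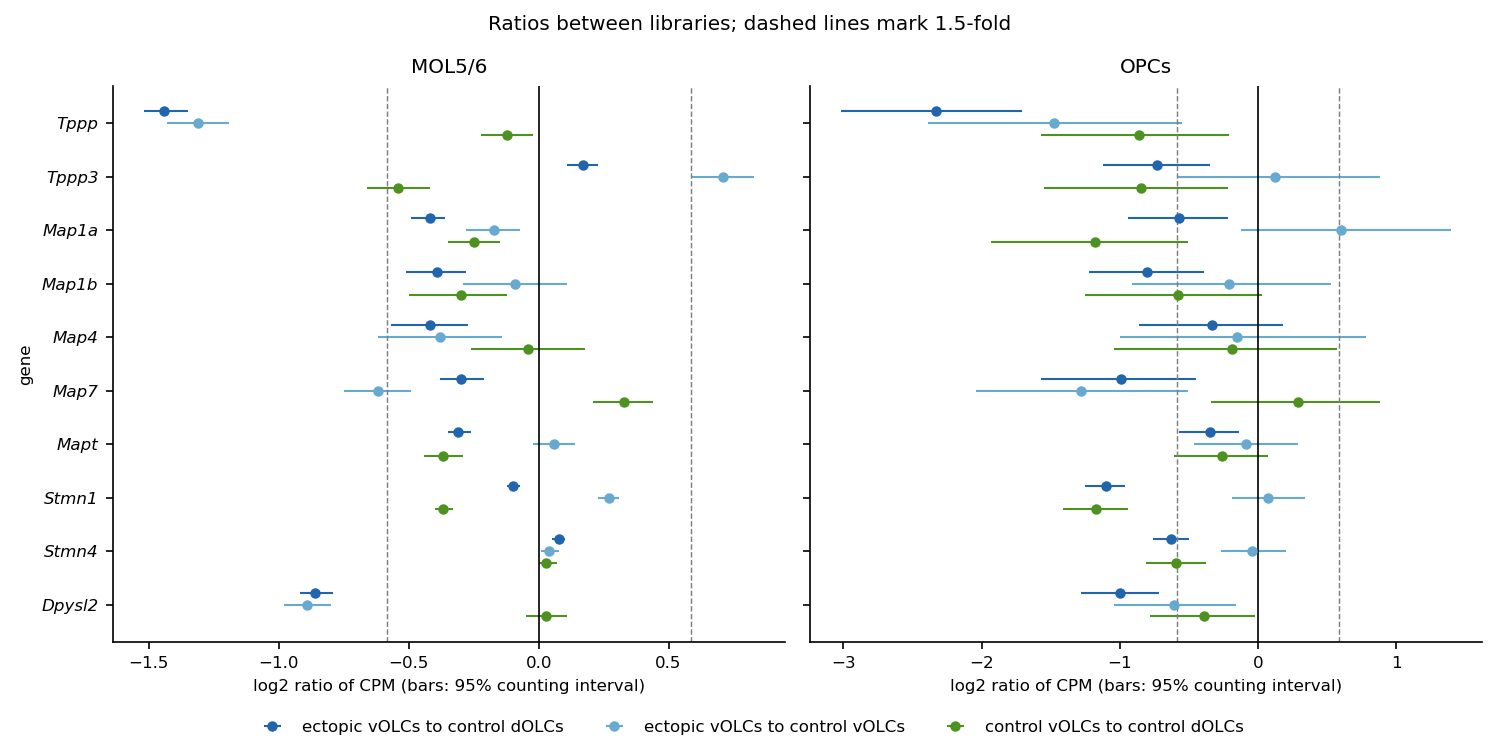
Log2 ratio of CPM for each gene in MOL5/6 (left) and OPCs (right), for the ectopic library to each control and for the ventral to the dorsal control, with 95% counting intervals and dashed lines at 1.5-fold. Tppp and Dpysl2 lie left of the dashed line against both controls in both panels, while Stmn1 and Stmn4 leave 0 in OPCs mainly in comparisons with control dOLCs.

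Taking the 10 genes together in MOL5/6, 2 (Tppp and Dpysl2) were at least 1.5-fold below control dOLCs in the ectopic library, where 11.5% of all 5218 genes past the filter were, and 0 were higher, where 1.13% were. Under TMM scaling the shares of all genes were 6.59% lower and 3.72% higher, and under size factors 6.09% and 4.33%, with the counts of the 10 genes still at 2 and 0. Nothing is read from these counts, because this difference entered the choice of genes. Against control vOLCs 3 of 10 were lower (Tppp, Map7 and Dpysl2), beside 12.4% of all genes, and 1 (Tppp3) was higher, beside 1.46%. Map7 was not past 1.5-fold under either scaling, which left 2 lower, beside 7.55% of all genes under TMM and 7.30% under size factors, and 1 higher, beside 4.33% and 4.77%. With subclusters of MOL5/6 weighted as in control dOLCs, Tppp alone was lower, beside 13.6% of all genes, and 0 were higher, beside 3.38%, as Dpysl2 was -0.55, Map7 -0.22 and Tppp3 0.05. Between control vOLCs and control dOLCs 0 were lower, beside 0.731%, and 0 were higher, beside 2.56%. The median log2 ratio of the 10 genes was -0.35, -0.13 and -0.18 in these comparisons, against -0.03, -0.02 and -0.03 over all genes. All 10 genes passed the filter in MOL5/6.

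In OPCs 7 of 10 genes (Tppp, Tppp3, Map1b, Map7, Stmn1, Stmn4 and Dpysl2) were at least 1.5-fold below control dOLCs in the ectopic library, where 5.79% of 6110 genes were, and 0 were higher, where 5.34% were. This count too is a description only. Mature oligodendrocyte markers summed to 8548 CPM in OPCs of control dOLCs and 3757 in the ectopic library, and in OPCs with few of their UMIs 4 of 10 were lower, beside 5.02% of all genes, without Tppp3, Map7 and Stmn4. Without the barcodes of highest doublet score, which were 42, 0 and 2 OPCs of the 3 libraries, 5 were lower, beside 5.04%, without Tppp3 and Stmn4. Against control vOLCs 9 genes passed the filter, of which 2 (Map7 and Dpysl2) were lower, beside 9.77% of all genes, and 1 (Map1a) was higher, beside 18.0%. Dpysl2 was short of 1.5-fold under both scalings, and Map1a was -0.03 after thinning each cell to 1000 UMIs. Control vOLCs were lower than control dOLCs in 5 of 10 genes (Tppp, Tppp3, Map1a, Stmn1 and Stmn4), beside 12.1%, and higher in 0, beside 10.8%. Of all 5863 genes 712 were lower and 633 higher, which became 882 and 477 under TMM and 863 and 494 under size factors. With Map1b, 6 of the 10 genes were lower under both scalings. Without the highest doublet scores 3 were lower, beside 11.5%, as Tppp was -0.57 and Stmn4 -0.44. The medians were -0.76, -0.09 and -0.59, against 0.08, 0.04 and 0.03 over all genes.

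Tppp3, which shares the tubulin-binding core of TPPP without its N-terminal tail, followed another course. In MOL5/6 it was 314, 216 and 353 CPM in the 3 libraries, with the ectopic one highest. Its ectopic log2 ratio was 0.17 (0.11 to 0.23) to control dOLCs and 0.71 (0.59 to 0.83) to control vOLCs. With subclusters weighted as in control dOLCs these were -0.23 and 0.05, so that the ectopic library was no longer past 1.5-fold. Within subclusters MOL5/6a to MOL5/6d the ratios to control dOLCs were -0.12, -0.67, -0.09 and 0.13, and only the last had an interval above 0. In OPCs it was 101, 55.7 and 60.7 CPM, with both ventral libraries below the dorsal one, and the ratio to control dOLCs was -0.73 (-1.12 to -0.35). It was -0.49 in OPCs with few mature marker UMIs and -0.54 without the highest doublet scores, both short of 1.5-fold.

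The level of Tppp3 differed widely among mature clusters of control dOLCs and ectopic vOLCs. MOL2b had 941 CPM in control dOLCs and 1032 in ectopic vOLCs, which was apart from MOL5/6d, next in order, at 434 and 475. The lowest mature clusters were MOL5/6a at 196 CPM in control dOLCs and MOL5/6b at 137 in ectopic vOLCs, so that the highest level was 4.80-fold and 7.55-fold the lowest. The ectopic MOL5/6b level came from 42 cells with 19 UMIs (82.4 to 214 CPM) and was not apart from MOL5/6a at 181 CPM, so that the second span is imprecise. Control vOLCs had only 6 MOL2b cells and were not ordered there, and over their other mature clusters Tppp3 spanned 1.92-fold. Over the same mature clusters of control dOLCs Tppp spanned 2.46-fold. MOL2b, where Tppp3 peaked, held neither the highest nor the lowest Tppp in these libraries.

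Among the microtubule-associated proteins, Map1a and Map1b are the large members that are cleaved into heavy and light chains. Map1a in MOL5/6 was 373, 315 and 279 CPM, a ratio of -0.42 to control dOLCs and -0.17 to control vOLCs. In single clusters all 10 ratios to control dOLCs were below 0, with 7 intervals below 0, while 0 of 7 intervals against control vOLCs excluded 0. In OPCs it was 109, 48.1 and 73.2 CPM, where control vOLCs were lowest. Its ratio of 0.60 to control vOLCs there passed 1.5-fold, but its interval of -0.12 to 1.40 held 0, and after thinning to 1000 UMIs per cell the ratio was -0.03. The last part of Map1a overlaps Ppip5k1 on the other strand, and Map4 and Mapt overlap antisense transcripts of the count table. The study names the standard Cell Ranger pipeline, and whether these overlaps affect the counts was not tested.

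Map1b, the member known from growing processes, peaked at the transition from precursor to myelinating cell. COP/NFOL/MFOLa held 564 CPM in control dOLCs and 449 in ectopic vOLCs, apart from the next cluster, which was MOL2b at 176 CPM in control dOLCs and MOL2a at 202 in ectopic vOLCs. OPCs held 91.0, 60.8 and 52.4 CPM, the lowest level of each library, though not apart from the next cluster in any of them, MOL5/6d (92.0), MOL5/6a (74.3) and MOL5/6b (64.8). In MOL5/6 it was 113, 91.1 and 85.6 CPM, with ratios of -0.39 to control dOLCs and -0.09 (-0.29 to 0.11) to control vOLCs. The sign of the latter turned under other scalings, to 0.06 and 0.07.

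Map7 in MOL5/6 as a whole was higher in control vOLCs than in either other library. It was 197, 247 and 161 CPM there. The ratio of ectopic vOLCs was -0.30 (-0.38 to -0.21) to control dOLCs and -0.62 (-0.75 to -0.49) to control vOLCs. The latter was -0.47 and -0.46 under TMM and size factor scaling, short of 1.5-fold. Of 7 clusters, 5 had an interval below 0 against control vOLCs, and between the controls 4 had one above 0. Against control dOLCs the subclusters gave -0.24, 0.04, 0.37 and 0.11, so that only MOL5/6a was below 0, with an interval of -0.48 to 0.00. In MOL5/6c the ectopic library was highest, at 224, 252 and 289.9 CPM, and its ratio to control vOLCs was 0.20 (-0.23 to 0.63). In OPCs it was 57.9, 70.9 and 29.1 CPM, and the ectopic library lay below both, by -0.99 (-1.57 to -0.45) and -1.28 (-2.04 to -0.51), while the interval between the controls, -0.34 to 0.88, held 0. Mature oligodendrocyte markers in these OPCs were 8548, 3767 and 3757 CPM, and in OPCs with few of their UMIs the ratio of Map7 to control dOLCs was -0.49, short of 1.5-fold.

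Map4, the form found in most tissues, differed little between the controls. In MOL5/6 it was 71.3, 69.5 and 53.3 CPM, a ratio of -0.42 to control dOLCs and -0.38 to control vOLCs. In OPCs it was 46.1, 40.5 and 36.6 CPM, and all 3 intervals held 0. Mapt, whose product tau spaces and stabilises microtubules, was 767, 595 and 621 CPM in MOL5/6, with both ventral libraries below the dorsal one. Its ratio to control dOLCs was -0.31, and that to control vOLCs was 0.06 (-0.02 to 0.14). Mapt was highest in MOL5/6c in each library, at 905, 815 and 963 CPM, and lowest in OPCs, at 252, 210.3 and 197 CPM.

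Stmn1 and Stmn4 differed by less than 1.5-fold between any libraries in MOL5/6. Stmn1, the founding stathmin, was 2643, 2052 and 2473 CPM in MOL5/6, where control vOLCs were lowest. Its ratio was -0.10 to control dOLCs, turning to 0.07 and 0.09 under other scalings, and 0.27 to control vOLCs. Stmn4 was 2454, 2510 and 2587 CPM, with ratios of 0.08 and 0.04. These genes differed from each other among subclusters. In control dOLCs Stmn1 ran from 1720 CPM in MOL5/6a to 3642 in MOL5/6d and 3848 in MOL2b, whereas Stmn4 was 3058 in MOL5/6a and 2290 in MOL5/6c. In control vOLCs Stmn1 was 1750 in MOL5/6a and 3417 in MOL5/6d, and in ectopic vOLCs 1266 and 3292. Within MOL5/6a the ratio of Stmn1 to control dOLCs was -0.44 (-0.51 to -0.37), and within MOL5/6d -0.15 (-0.18 to -0.11).

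In OPCs both stathmins were lower in the ventral libraries than in the dorsal one, as were the markers of mature oligodendrocytes (8548, 3767 and 3757 CPM), whose part was not tested. Origin and library cannot be told apart. Stmn1 was 890.1, 395 and 414 CPM. The ratio to control dOLCs was -1.10 (-1.25 to -0.96) for ectopic and -1.17 (-1.41 to -0.94) for control vOLCs, and ectopic vOLCs to control vOLCs gave 0.07 (-0.19 to 0.34). Stmn4 was 759.9, 504 and 492 CPM, with ratios of -0.63 and -0.59 to control dOLCs and -0.04 (-0.27 to 0.20) between the ventral libraries, which turned to 0.03 and 0.02 under other scalings. In OPCs with few mature marker UMIs the ectopic ratio of Stmn4 to control dOLCs was -0.50, short of 1.5-fold, and that of Stmn1 -0.84.

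Among the 10 genes, Dpysl2 came nearest to Tppp in the ratios of the ectopic library in MOL5/6 summed over cells. In OPCs Stmn1 was nearer against control dOLCs (-1.10) and Map7 against control vOLCs (-1.28). In MOL5/6 Dpysl2 was 496, 508 and 274 CPM, and the ectopic library lay below both controls, which were level over the class as a whole. The ratio was -0.86 (-0.92 to -0.79) to control dOLCs, -0.89 (-0.98 to -0.80) to control vOLCs and 0.03 (-0.05 to 0.11) between the controls. With subclusters weighted as in control dOLCs the first was -0.36 and the second -0.55, both short of 1.5-fold. In OPCs it was 222, 169.7 and 111 CPM, with ratios of -1.0 (-1.28 to -0.72) and -0.61 (-1.04 to -0.16). The latter was -0.54 under TMM and -0.55 under size factors, short of 1.5-fold. All 10 clusters were below 0 against control dOLCs and 8 intervals excluded 0, the exceptions being MFOLb at -0.15 and MOL5/6c at -0.17. Against control vOLCs 6 of 7 clusters were below 0 and 5 intervals excluded 0, with MOL1 at 0.14. Between the controls the ratios ran from -0.79 in MOL1 to 0.43 in MOL5/6d, with 2 intervals below 0 and 3 above it. MOL5/6c was the highest cluster in each library, at 639.7, 659.7 and 570.5 CPM. After thinning to 1000 UMIs, 39.7%, 38.0% and 23.1% of MOL5/6 cells had a Dpysl2 UMI, and 79.5%, 86.5% and 71.8% before it.

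**Figure D3:**
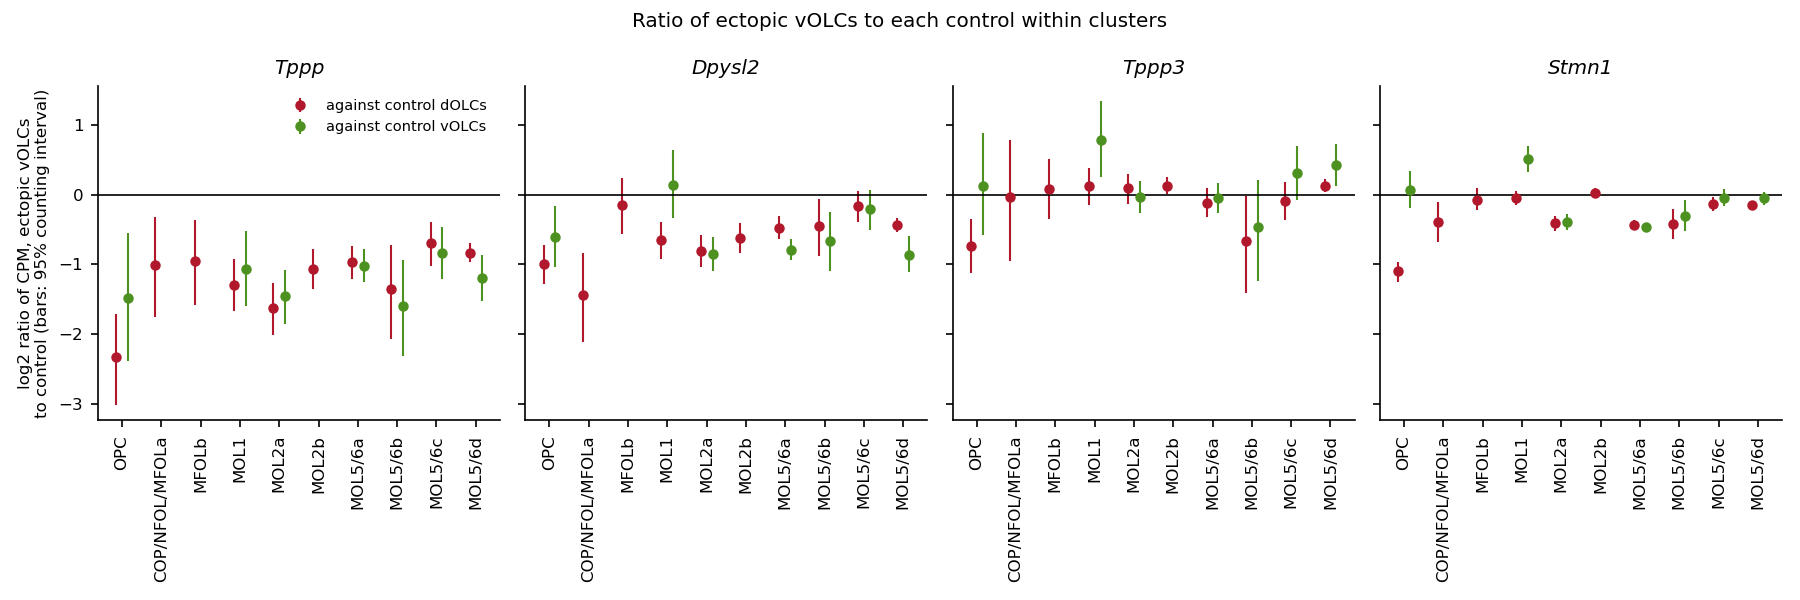
Log2 ratio of CPM in the ectopic library to control dOLCs (red) and to control vOLCs (green) in each annotated cluster with at least 20 cells in both libraries, for Tppp, Dpysl2, Tppp3 and Stmn1, with 95% counting intervals. All points of Tppp and their bars lie below 0. The points of Dpysl2 lie below 0 in all clusters against control dOLCs, where 2 of their bars hold 0, and the points of Tppp3 lie on both sides.

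The make-up of MOL5/6 differed between libraries, and the ratios moved when it was held fixed. Subclusters a, b, c and d made up 8.82%, 51.5%, 24.6% and 15.1% of MOL5/6 in control dOLCs. They were 42.2%, 42.1%, 9.45% and 6.24% in control vOLCs, and 48.9%, 2.28%, 3.42% and 45.4% in ectopic vOLCs. MOL5/6b and MOL5/6c, where Tppp was highest in the controls, were thus 76.1%, 51.5% and 5.70% of the class. With each subcluster weighted as in control dOLCs, the ratio of Tppp to control dOLCs was -1.04 instead of -1.44, and still past 1.5-fold. That of Dpysl2 was -0.36 instead of -0.86, and no longer past it. Map4 moved from -0.42 to 0.00, Map7 from -0.30 to 0.13 and Tppp3 from 0.17 to -0.23, while Map1b moved from -0.39 to -0.50 and Stmn1 from -0.10 to -0.26. MOL5/6b, to which this weighting gives 51.5%, rested on 42 ectopic cells with 20 Tppp, 51 Dpysl2, 11 Map4, 30 Map7, 19 Tppp3 and 9 Map1b UMIs, so that these values are imprecise, and no interval was computed for them. Against control vOLCs Tppp was -1.25, Dpysl2 -0.55, Map7 -0.22 and Tppp3 0.05 under this weighting. Between the controls Tppp then gave 0.21 instead of -0.12.

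**Figure D4:**
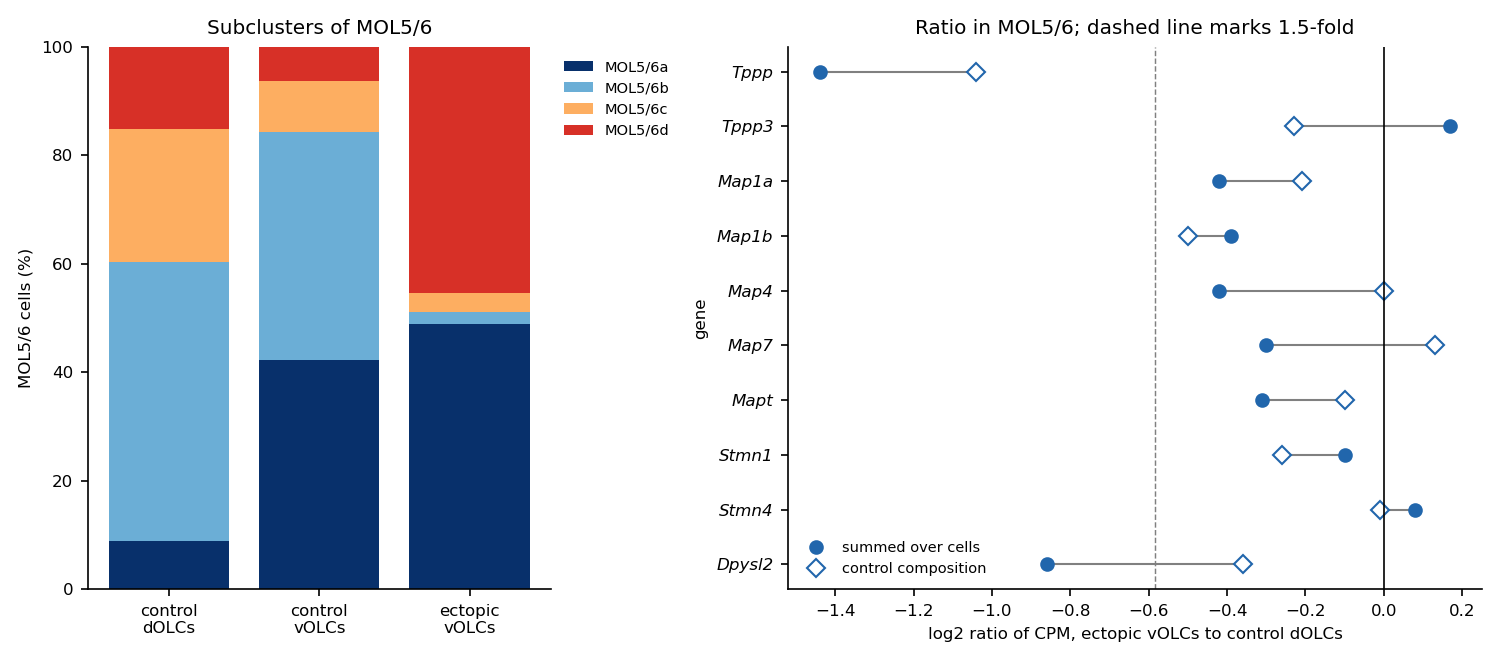
Left, share of each subcluster among MOL5/6 cells of the 3 libraries (percent). Right, log2 ratio of CPM in MOL5/6, ectopic library to control dOLCs, for each gene, summed over cells (filled) and with subclusters weighted as in control dOLCs (open diamonds), in which Tppp moves from -1.44 to -1.04 and Dpysl2 from -0.86 to -0.36.

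Markers of mature oligodendrocytes moved with the differences among OPCs. The 6 markers summed to 8548, 3767 and 3757 CPM in OPCs of the 3 libraries, and their median share of a cell's UMIs was 0.612%, 0.376% and 0.356%. In control dOLCs 209 of 853 OPCs (24.5%) had under 0.5% of their UMIs in these markers, against 100 of 121 (82.6%) in the ventral control and 289 of 330 (87.6%) in the ectopic library. In OPCs under this limit, where the sums were 4109, 3383 and 3381 CPM, the ratio of Tppp to control dOLCs was -2.25, from 60 and 21 UMIs. Stmn1 was then -0.84, Dpysl2 -0.81 and Map1b -0.96, all still past 1.5-fold. Tppp3 (-0.49), Map7 (-0.49) and Stmn4 (-0.50) were not, Map1a was -0.09, and Mapt and Map4 were -0.06 and -0.09. The number of genes past 1.5-fold lower was thus 4 instead of 7, beside 5.02% of all genes in the same cells, and the median -0.49 instead of -0.76, beside 0.04 over all genes. The limit was chosen after the marker levels had been seen. The part of the markers in the remaining differences was not tested.

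Transcript length also moved with the ratios over all genes. All genes past the filter were split into 10 equal classes by their longest annotated transcript. In MOL5/6 the median ratio to control dOLCs was 0.08 in the class of shortest transcripts (median 950 bases) and -0.54 in the longest (8450 bases). Tppp, with 5090 bases, had -1.44 in a class with a median of -0.26 and a 10th to 90th percentile range of -0.78 to 0.18. Dpysl2, with 4520 bases, had -0.86 in the same class. Map1a and Map1b, at 11825 and 11808 bases, had -0.42 and -0.39 beside a median of -0.54, and Map4 and Mapt had -0.42 and -0.31 beside -0.37 in theirs. Stmn1 had -0.10 beside 0.08. In OPCs the class of Tppp had a median of -0.01 and a range of -0.50 to 0.37, and Tppp had -2.33. Stmn1, in the shortest class, had -1.10 beside 0.22. The part of length in the ratios was not tested.

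**Figure D5:**
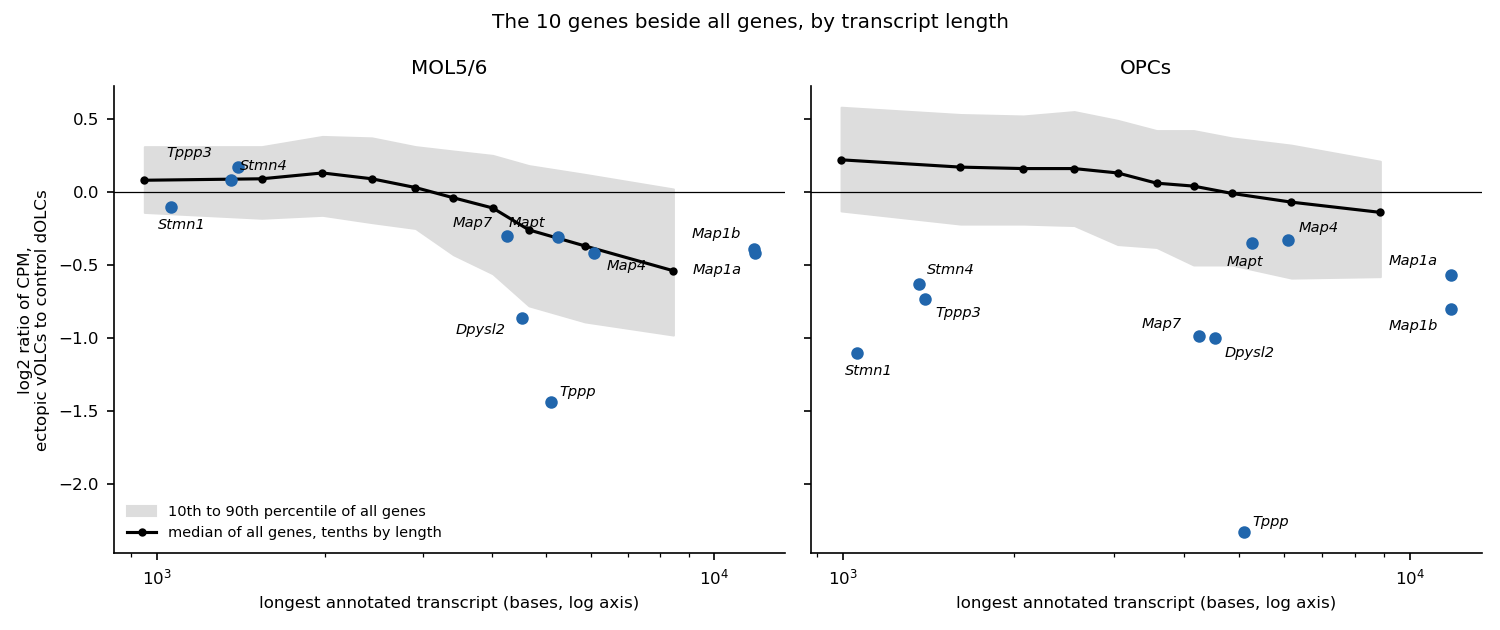
Log2 ratio of CPM, ectopic library to control dOLCs, against the length of the longest annotated transcript (bases, log axis) in MOL5/6 and OPCs. The line joins the medians of 10 classes of all genes by length, the band spans their 10th to 90th percentiles, and Tppp and Dpysl2 lie below the band in both panels.

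Other genes of the microtubule system were counted from a list of 64 tubulins, further associated proteins, stathmins and CRMPs, severing and modifying enzymes, and kinases. In MOL5/6 35 had enough molecules, of which 3 were at least 1.5-fold lower than in both controls, beside 6.60% of 5211 genes measured in the same way, and 1 was higher, beside 0.518%. Those lower were Clip2, a plus-end binder (ratios of -0.82 and -0.67), Spast, which severs microtubules (-0.89 and -0.73), and Ttbk2, a kinase of tau and tubulin (-1.03 and -1.13). Against control vOLCs Clip2 was -0.52 and -0.51 and Spast -0.58 and -0.57 under TMM and size factors, short of 1.5-fold, which left 1 gene lower, beside 3.36% and 3.07% of all genes. After thinning both were also short of it (-0.27 and -0.39), and with subclusters weighted as in control dOLCs Spast alone was past it against both controls, Ttbk2 being at -0.27 and -0.54. Tubb3, a tubulin isotype known from neurons, was higher, at 7.48 and 9.59 CPM in the controls and 95.1 in ectopic vOLCs, with ratios of 3.67 and 3.31. In OPCs 41 were measured, with 0 lower than both controls, beside 1.69% of 5667 genes, and 3 higher, beside 2.86%. The latter were Tubb3 (3.42 and 3.69), Crmp1 (0.75 and 0.72, the latter with an interval of -0.28 to 1.86) and the tubulin chaperone Tbca (0.62 and 1.23). In OPCs with few mature marker UMIs Crmp1 (0.51) and Tbca (0.43) were short of 1.5-fold against control dOLCs, and Tubb3 alone was higher, beside 2.86% of all genes. Tbca was also short of it after thinning (0.41) and by mean over cells (0.58). Thinning left 2 higher, beside 5.26%, and gave 2 lower, beside 5.17%. The counts are small and nothing is read from them, and the list was drawn up with earlier results of these libraries known.

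The genes most like Tppp across 27 clusters by library, among 5684 genes with at least 50 CPM in 1 of them, were Gab1 (Pearson r = 0.94), Dip2a, Shroom2 and Lpgat1 (each 0.93) and Micall1 (0.92), over log2(CPM + 10). Dpysl2 had r = 0.91 with Tppp and was itself most like Micall1 (0.95) and Sik3 (0.93). Map7 had 0.84 with Tppp, Tppp3 0.51 and Map1b 0.32. Stmn1 was most like Ppp1r14a (0.99), Gpx4 and Plekhb1 (0.97), and Fth1 and Bnip3l (0.96). Tppp3 was most like Gng11 (0.95) and Fth1 (0.94), and Stmn4 like Efnb3 and Trf (0.97). Map1b was most like Enpp6 (0.91), a gene known from newly formed oligodendrocytes, and 9530059O14Rik (0.89). Map1a was most like Secisbp2l (0.95) and Smad7 (0.94), Map7 like Arhgap23 and Aatk (0.95), Mapt like Klf13 (0.95) and Clmn (0.93), and Map4 like Rasgrp3 (0.83) and Nfix (0.81). These correlations are descriptions, since units of a library share its depth and preparation and OPCs lie apart from the other clusters.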

How the data were processed

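As deposited by the authors, the count table holds UMIs per gene and cell without normalization, beside an annotation giving the library, cluster and percent of mitochondrial counts of each cell. Per the labels, the processing notes name Cell Ranger 2.1.1, Seurat 3 and 4.0 and the build mm10. The annotation's other 6 columns were not used. The kept cells (at least 200 and under 3000 genes, under 15% mitochondrial counts) were 9291 of 10081 barcodes. UMI totals equalled those of the annotation in 82.3% of them. The 4 single-nucleus samples from P0 were not analysed here.

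UMIs were summed per library and cluster, 1 library per group, and scaled to 1000000. With 1 library per group there is no test between groups and no SE. Ratios carry exact conditional binomial intervals, levels exact Poisson and shares Clopper-Pearson intervals, all at 95%. Over both libraries of a comparison, genes needed 50 UMIs, with 10% of the cells of either holding 1. A difference was called at 1.5-fold, both in the list and over all genes. No cell was removed as a doublet. Scrublet called 4, 16 and 19 barcodes, and at 0.0646% of control dOLCs it was judged not to have worked, so that an alternative left out the 6% with the highest score. Clusters in a library with under 20 cells were not ordered. The 10 genes were all named, other microtubule genes only when past 1.5-fold in one direction against both controls. Likeness is Pearson's r, of which the 5 highest are named for Tppp and Stmn1 and the 2 highest for each other gene. Genes and lists were chosen with earlier results of these data known. Alternatives were TMM and size factor scaling, means over cells, cells thinned to 1000 UMIs, 10% mitochondrial counts, doublet scores, control composition, no filter, folds of 1.25 and 2, and, chosen after seeing the data, OPCs with under 0.5% mature marker UMIs and the use of these alternatives for the other microtubule genes. The ratios and their intervals were tested on Poisson counts simulated for MOL5/6 and OPCs. Such counts hold no variation between cells, mice or libraries. Positions, transcripts and lengths came from GENCODE on GRCm38 (lengths for 95.2% of genes) and promoters from RefSeq. Tools were scipy 1.17.1, numpy 2.4.6, scanpy 1.11.5, pandas 2.3.3 and matplotlib 3.10.9 under Python 3.11.15, and, for scaling factors only, DESeq2 1.42.0 and edgeR 4.0.16 under R 4.3.3.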

Additional observations from a re-analysis of the deposited data

Results flagged for a closer look

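For ectopic vOLCs to control dOLCs, Tppp3 and Stmn4 had opposite signs in the 2 cell classes. The log2 ratio of Tppp3 was 0.17 in MOL5/6 and -0.73 in OPCs, a difference of 0.90. That of Stmn4 was 0.08 in MOL5/6 and -0.63 in OPCs, a difference of 0.70. With subclusters of MOL5/6 weighted as in control dOLCs, Tppp3 was -0.23 and Stmn4 -0.01 there, so that neither had a sign opposite to that in OPCs. With 1 library per group, neither difference was tested.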

How the results depend on the processing

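No paired analysis was possible because each group has 1 library, and for the same reason no library could be left out. The log2 ratio of Tppp to control dOLCs stayed past 1.5-fold lower under every alternative run, from -1.52 to -1.04 in MOL5/6 and from -2.34 to -1.88 in OPCs. In MOL5/6, TMM and size factor scaling raised ratios of ectopic vOLCs to control dOLCs by 0.17 and 0.19, and those to control vOLCs by 0.15 and 0.16. Tppp to control dOLCs was then -1.27 and -1.25, with the mean over cells -1.52 and with control composition -1.04; to control vOLCs it was -1.17 and -1.15 under the scalings, and between controls 0.21 with control composition. The median of the 10 genes to control dOLCs was -0.18 and -0.16 under the scalings, -0.42 by mean over cells, -0.43 after thinning and -0.22 with control composition, and to control vOLCs 0.01 and 0.03 under the scalings. Over all genes the scalings moved these medians to 0.14 and 0.16, and to 0.13 and 0.14. Counts of the 10 genes past the threshold (1.5-fold unless another is named) follow, each with the share of all genes by the same rule. In MOL5/6, 1 was lower than control dOLCs with control composition (9.54%) and at 2-fold (1.95%), and 5 at 1.25-fold (23.3%). Against control vOLCs 1 was lower with control composition (13.6%) and at 2-fold (2.71%), and 0 were higher (3.38% and 0.218%), while TMM and size factors left 2 lower (7.55% and 7.30%), without Map7. Between controls 1 was lower after thinning (6.35%), and at 1.25-fold 3 were lower (9.43%) and 1 higher (8.49%). In OPCs, 4 were lower than control dOLCs among those with few mature marker UMIs (5.02%), 5 without the highest doublet scores (5.04%), 6 by mean over cells (5.68%), 8 under size factors (6.14%) and after thinning (10.8%), 2 at 2-fold (1.91%) and 10 at 1.25-fold (13.5%). Against control vOLCs 1 was lower under TMM (7.48%) and size factors (8.06%), both without Dpysl2, and by mean over cells (10.0%) and at 2-fold (1.84%), while 0 were higher by mean over cells (15.6%) and at 2-fold (5.30%) and 2 after thinning (23.5%). Between controls 3 were lower without the highest doublet scores (11.5%) and 2 at 2-fold (2.80%), and 1 was higher after thinning (16.3%) and with few mature marker UMIs (12.6%). After thinning, 2 single ratios to control vOLCs that were past 1.5-fold changed sign, Map1a in OPCs to -0.03 and Map7 in MOL1 to 0.13. Sign changes of smaller ratios are not part of this count. For the other changes the cause was not tested. Depth limits Tppp in OPCs of the ventral libraries (21 and 23 UMIs) and in ectopic MOL5/6b and COP/NFOL/MFOLa (20 UMIs each).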
